A study of Oryctolagus cuniculus with 20 samples.

Results

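The 66 genes described here encode chaperones, their partners and parts of the secretory pathway in the tricuspid valve of the rabbit. They were taken, by symbol and Ensembl id alone, from the list of differentially expressed genes that the study published for these valves: symbols that start with HSP, DNAJ, CCT and a digit, FKBP, PDIA, P4H, PLOD, CALR, CANX, SEC and a digit, SSR, SRP, SPCS, COPA, COPB, COPG, COPZ, TMED or KDEL, with an id among the 23669 genes of the counts. The list was chosen by the study on differences between treated and non-treated valves, so the members' values and calls in those comparisons are a description, and nothing is concluded from them. Comparisons between treatments use the treated valves that also chose the members. By role, fixed by hand from the symbols, 3 members modify or fold collagen in the endoplasmic reticulum (ER), 7 are other ER folding factors, 11 bring proteins to or through the ER membrane, 13 belong to vesicle coats and cargo receptors, 19 are cytosolic chaperones or their partners, 7 are mitochondrial, 3 are nuclear, and 3 share only the letters of the symbol. FKBP1A, CCT5 and SPCS2 are also on the study's list, but their ids as listed could not be matched to the counts. This does not show that the genes are absent there. All 66 members passed the filter on low counts, which left 8683 genes for testing.

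Female New Zealand White rabbits, aged 8 weeks at the start, drank agents tied to valve disease in their water for 16 weeks, to ask whether these change the valves along shared or separate paths. Of 20 rabbits, 5 received no treatment, 5 received serotonin at 80 mg/kg per day, 5 received pergolide, an ergot-derived dopamine agonist, at 0.5 mg/kg per day, and 5 received dexfenfluramine, an appetite suppressant that releases serotonin, at 20 mg/kg per day. The dose of dexfenfluramine is the one in the sample labels, and the results text of the paper gives a different one. RNA of each valve was sequenced as a library of its own, and the values are reads counted on each gene, scaled here to each valve's total as CPM, with normalization factors of the trimmed mean of M-values (TMM).

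Proteins bound for secretion are recognized by the signal recognition particle, pass the SEC61 channel into the ER, fold there with the help of chaperones, and leave in vesicles with a COPII coat, while COPI vesicles bring escaped ER proteins back. Collagen, the main fibrous protein of a valve leaflet, needs its own set of ER enzymes and chaperones, among them prolyl and lysyl hydroxylases, FKBP10, PPIB and the collagen chaperone SERPINH1. Proteins that stay in the cytosol or go to mitochondria are folded by other chaperones of the HSP70, HSP90, HSP60 and J-domain families, which are abundant in muscle.

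The valves differed in depth and in makeup before any gene of interest is compared. The 5 libraries of a group held between 4206516 and 5831376 counts without treatment, between 3526853 and 4880440 with serotonin, between 4484239 and 5921025 with pergolide and between 3247091 and 5790948 with dexfenfluramine. A single gene, ENSOCUG00000029084, took between 28.5% and 48.1% of the counts in non-treated valves and between 20.3% and 34.3% after dexfenfluramine. Its share ran from 29.55% to 39.36% after serotonin and from 31.16% to 35.72% after pergolide. Non-treated valve 3, at 28.5%, and dexfenfluramine valve 3, at 20.3%, had the lowest shares of their groups.

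Of 12 cardiomyocyte markers, 7 had an id, TTN made up 72% of their sum, and none of the 7 was at 0 in every valve. The summed markers were 139862, 104960, 48803, 149395 and 95788 CPM in the non-treated valves and 52778, 103045, 59397, 96172 and 63003 CPM in the serotonin valves. They were 81307, 90977, 91282, 52067 and 47488 CPM in the pergolide valves and 70002, 51854, 12366, 59804 and 70210 CPM in the dexfenfluramine valves. Non-treated valve 3 and dexfenfluramine valve 3 were lowest in their groups. Of the non-treated valves only valve 3 lay within the dexfenfluramine range, and the pergolide and serotonin valves overlapped both. TNNT2 was called lower after each drug and MYH7 and PLN after dexfenfluramine, with median log2 fold changes of the 7 markers of -0.53 after serotonin, -0.50 after pergolide and -1.01 after dexfenfluramine. Without non-treated valve 3, 3 markers were called lower after pergolide and 5 after dexfenfluramine, and with surrogate variables only TNNT2 was called lower, at -1.40 and -1.58 in place of -2.27 ± 0.45 and -2.79 ± 0.46. The number called lower after dexfenfluramine, 3 in the main fit, ran from 1 to 5 over settings and from 2 to 5 without 1 valve. In 1 setting 1 marker was called higher after pergolide. MYH7 was at -1.45 ± 0.44 after dexfenfluramine and -0.04 (no call) with surrogate variables, and PLN at -1.24 ± 0.35 and -0.34 (no call). Fewer cells of a type and less RNA per cell cannot be told apart in these whole valves.

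Markers of valvular interstitial cells, the resident cells that make collagen, had ids for 7 of 8 genes, led by VIM, with means of 6205 ± 992 CPM (SD, n = 5) without treatment, 6850 ± 706 after serotonin, 8286 ± 1405 after pergolide and 8892 ± 1182 after dexfenfluramine. Of these 7, COL1A1, COL1A2 and COL3A1 are collagens reported again below, and without them the sums averaged 4482 ± 849.6, 4614 ± 713, 4899 ± 927 and 5524 ± 680.2 CPM in the same order. Of the other genes with an id, PDGFRB was called higher after pergolide, at 0.75 ± 0.14, and after dexfenfluramine, at 0.76 ± 0.14, and LUM after pergolide, at 0.68 ± 0.17, while VIM and DCN were not called. With surrogate variables PDGFRB was at 0.53 (no call) and 0.50 (no call), and LUM at 0.58 (no call). For adipocytes, 3 of 7 markers had an id, led by ADIPOQ, and their sums averaged 35.8 ± 19.7, 73.3 ± 38.3, 123 ± 50.5 and 57.4 ± 40.9 CPM from non-treated to dexfenfluramine. After pergolide ADIPOQ, CIDEA and LEP were called higher, at 1.46 ± 0.52, 2.86 ± 0.66 and 2.25 ± 0.70, and with surrogate variables they were at 0.81 (no call), 1.59 (no call) and 0.43 (no call). The call of ADIPOQ was found in 5 of 9 settings and in 3 of 10 fits without 1 valve, not without non-treated valve 1, 2, 3 or 5 or pergolide valve 1, 2 or 5, and that of LEP in 7 of 9 settings and in 7 of 10 fits without 1 valve, not without non-treated valve 2 or 5 or pergolide valve 1. Smooth muscle markers, with 3 of 5 genes and DES in the lead, averaged 428 ± 151, 371 ± 72.2, 414 ± 34.4 and 315 ± 132 CPM. DES was 89.9% of this sum and was not called. After dexfenfluramine MYH11 was called lower, at -1.41 ± 0.36, and TAGLN higher, at 1.35 ± 0.35, and with surrogate variables they were at -0.24 (no call) and 0.79 (no call). TAGLN was also called higher after pergolide, at 0.99 ± 0.36, found in 2 of 9 settings and in 2 of 10 fits without 1 valve, not without non-treated valve 1, 2, 3 or 4 or pergolide valve 1, 3, 4 or 5, and at 0.68 (no call) with surrogate variables. PECAM1, alone of 6 endothelial markers, averaged 212 ± 66.2, 227 ± 33.6, 127 ± 31 and 169.7 ± 28.1 CPM, and 2 of 6 macrophage markers, led by C1QA, averaged 16.2 ± 7.3, 21.3 ± 9.84, 32.9 ± 12.5 and 28.7 ± 4.22 CPM. After pergolide PECAM1 was called lower, at -0.73 ± 0.21, or -0.39 (no call) with surrogate variables, and C1QA higher, at 1.45 ± 0.39 in the main fit and in each alternative, 2.13 with surrogate variables. No marker of any list was called after serotonin. No erythroid or chondrocyte marker of the lists had an id with a symbol. Symbols come only from the study's list, so these marker genes were also picked from these valves, and their part in the results below was not tested.

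A comparison of each treatment with the non-treated valves asks which genes it altered. After pergolide, 20 members were called higher and 24 lower (adjusted p under 0.05, edgeR), where calls over all genes came to 24.8%, 12.1% higher and 12.7% lower. After dexfenfluramine, 17 members were called higher and 30 lower, beside 28.9% of all genes, 13.5% higher and 15.4% lower. After serotonin, SEC63 was the only member called, on the higher side, beside 1.19% of all genes, 1.04% higher and 0.15% lower, while 1372 genes had an unadjusted p under 0.05. Nothing is read from these counts, since the list was picked for such differences: of the 3456 tested genes of the study's list, 28.1% were called higher and 28.6% lower after pergolide, and 31.8% and 34.3% after dexfenfluramine. Without non-treated valve 4, 11 members were called higher after dexfenfluramine in place of 17. A fit with 4 surrogate variables, which estimate variation that the groups do not explain, called 12 members higher and 11 lower after pergolide, and 9 higher and 13 lower after dexfenfluramine. In that fit the values of 15 of the 44 called members after pergolide and 25 of the 47 after dexfenfluramine came nearer to 0 by over 1.5 times or changed sign, and 1 in each group moved away from 0 as much. Such values are given below for the genes named, with a note where the call ended, which after a pair of values holds for both. Each call was also looked for in 9 other settings of the fit and in 10 fits that each left out 1 valve of the groups compared.

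**Figure D1:**
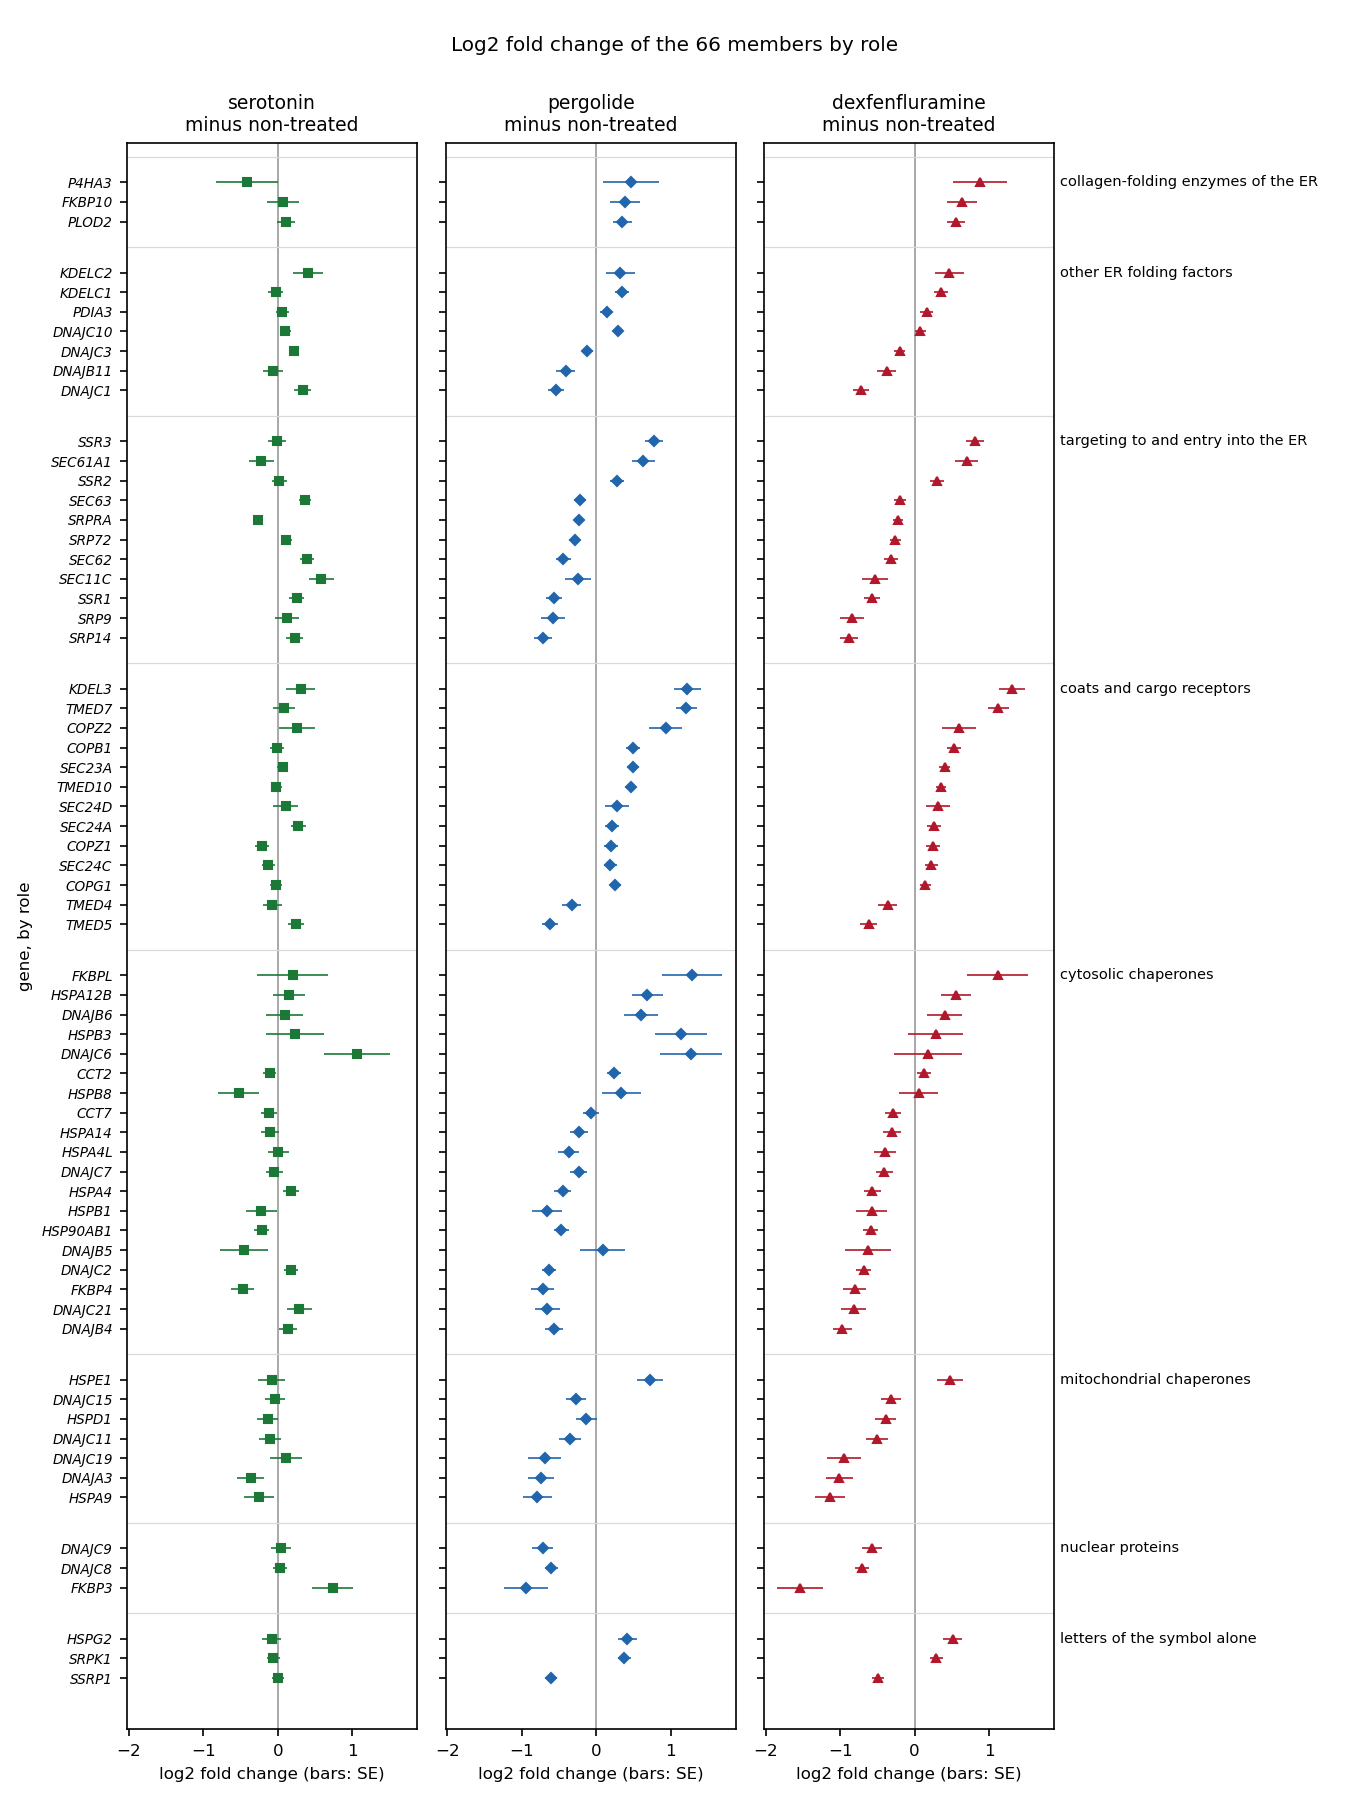
Log2 fold change of each of the 66 members against non-treated valves, with bars of 1 SE, for serotonin, pergolide and dexfenfluramine, grouped by role. Members of the same role lie on both sides of 0 in several roles, and the 3 nuclear members lie below 0 for both drugs.

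The collagen-folding enzymes of the ER, 3 members, had a median log2 fold change of 0.07 after serotonin, 0.39 after pergolide and 0.64 after dexfenfluramine, where the median of all genes tested was 0.01, 0.02 and 0.03. With surrogate variables the medians of these members were -0.038, 0.292 and 0.375 in the same order. In fits without 1 valve their pergolide median ran from 0.218 to 0.494. PLOD2, a lysyl hydroxylase that prepares collagen for cross-links, measured 86.2, 83.5, 89.2, 73.2 and 75.2 CPM in the non-treated valves, 97.6, 68.7, 85, 84.5 and 103 CPM in the serotonin valves, 82.9, 102, 108, 106 and 122 CPM in the pergolide valves and 89.3, 132, 139, 115 and 124 CPM in the dexfenfluramine valves. Each dexfenfluramine valve lay above each non-treated valve, by a narrow margin for valve 1, while pergolide valve 1 lay within the non-treated range. The log2 fold change was 0.35 ± 0.12 (SE) after pergolide and 0.56 ± 0.12 after dexfenfluramine, against 0.11 ± 0.12 after serotonin.

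FKBP10, an ER prolyl isomerase and collagen chaperone, measured 17.7, 19.2, 27, 16.2 and 26.5 CPM in the non-treated valves, 21.4, 19.6, 23.4, 23.9 and 25 CPM in the serotonin valves, 19, 21, 27.2, 33.2 and 40.7 CPM in the pergolide valves and 37, 32.6, 45.4, 28.1 and 24.9 CPM in the dexfenfluramine valves. Pergolide valves 3, 4 and 5, valve 3 by little, and dexfenfluramine valves 1 to 4 lay above each non-treated valve, and the groups overlapped. Its log2 fold changes were 0.39 ± 0.20 after pergolide and 0.64 ± 0.20 after dexfenfluramine, and with surrogate variables they were -0.03 and -0.04, of the other sign. The higher call of FKBP10 after dexfenfluramine was found in 8 of 9 settings and in 6 of 10 fits without 1 valve, not without non-treated valve 1, 2 or 4 or dexfenfluramine valve 3. P4HA3, a catalytic subunit of collagen prolyl hydroxylase, was low everywhere, with 3.25, 8.94, 6.5, 3.24 and 4.37 CPM in the non-treated valves, 3.26, 3.17, 5.26, 1.88 and 6.74 CPM in the serotonin valves, 7.09, 5.81, 6.11, 4.92 and 13.2 CPM in the pergolide valves and 6.24, 12.2, 16.7, 8.57 and 5.45 CPM in the dexfenfluramine valves. Its groups overlapped, pergolide valve 5 and dexfenfluramine valves 2 and 3 being the highest of all 20, and its log2 fold changes were -0.41 ± 0.42 after serotonin, 0.47 ± 0.37 after pergolide and 0.88 ± 0.36 after dexfenfluramine. None of these was called. With surrogate variables P4HA3 was at -0.77, 0.32 and 0.41 in the same order.

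SERPINH1, which is not a member because its symbol starts otherwise, is the chaperone that binds folded procollagen and travels with it to the Golgi. SERPINH1 measured 10.5, 9.76, 14.6, 7.35 and 12.2 CPM in the non-treated valves, 8.39, 10.1, 13.4, 8.04 and 13.2 CPM in the serotonin valves, 19, 31.1, 24.9, 29 and 26.3 CPM in the pergolide valves and 20.6, 29.8, 34.2, 22.4 and 23.9 CPM in the dexfenfluramine valves. Each pergolide and dexfenfluramine valve exceeded each non-treated and serotonin valve, and the log2 fold changes were 1.24 ± 0.19 after pergolide and 1.25 ± 0.19 after dexfenfluramine, or 1.25 and 1.04 with surrogate variables. PPIB, the ER cyclophilin of the complex that hydroxylates procollagen prolines, moved the other way, with 119.8, 97, 104, 80.9 and 82.6 CPM in the non-treated valves, 104, 142, 112, 87.7 and 108 CPM in the serotonin valves, 64.2, 62.2, 56, 61 and 68 CPM in the pergolide valves and 46.3, 55.8, 82.8, 55.2 and 51.5 CPM in the dexfenfluramine valves. The pergolide valves lay below each non-treated valve, and so did 4 of the 5 dexfenfluramine valves, valve 3 overlapping at 82.8 CPM. Its log2 fold changes were -0.64 ± 0.14 and -0.73 ± 0.14, against 0.19 ± 0.14 after serotonin.

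Of the 25 genes of a collagen folding list written by hand, 6 had an id, all of them tested. SERPINH1 and PLOD2 were called higher and PPIB lower after pergolide, and FKBP10, SERPINH1 and PLOD2 higher and PPIB lower after dexfenfluramine, while no gene of the list was called after serotonin. The calls of SERPINH1 were found in all of these alternatives, but that of PLOD2 after pergolide was found only in 2 of 9 settings and in 2 of 10 fits without 1 valve, not without non-treated valve 1, 2, 4 or 5 or pergolide valve 2, 3, 4 or 5. With surrogate variables 1 gene, SERPINH1, was called higher after each drug. PLOD2 was then at 0.292 and 0.375 (no call), and PPIB at -0.31 (no call) after pergolide. The list's median log2 fold change was 0.09 after serotonin, 0.37 after pergolide and 0.60 after dexfenfluramine, and 0.25 and 0.28 for the drugs with surrogate variables. Of the collagens themselves, COL1A1, COL1A2, COL3A1 and COL5A2, 4 of 5 fibrillar collagens with an id, were called higher after each drug, with medians of 0.95 after pergolide and 0.96 after dexfenfluramine, and 0.39 after serotonin with no call. With surrogate variables the medians were 0.48 and 0.45 after the drugs, with 2 and 1 collagens called. COL1A1 was then at 0.38 and 0.36 (no call), and COL5A2 at 0.33 (no call) after dexfenfluramine. COL1A2 was at 0.58 after pergolide and at 0.53, without a call, after dexfenfluramine. COL3A1 averaged 1044 ± 269 CPM (SD, n = 5) without treatment, 1315 ± 109.8 CPM after serotonin, 2090 ± 393 CPM after pergolide and 2016 ± 383 CPM after dexfenfluramine. COL1A2 averaged 574 ± 121 CPM, 778 ± 141 CPM, 1077 ± 199.6 CPM and 1120 ± 249 CPM in the same order. Every listed gene here and below also comes from the study's list, so the counts are no independent evidence of a direction, and genes without an id are not named here.

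**Figure D2:**
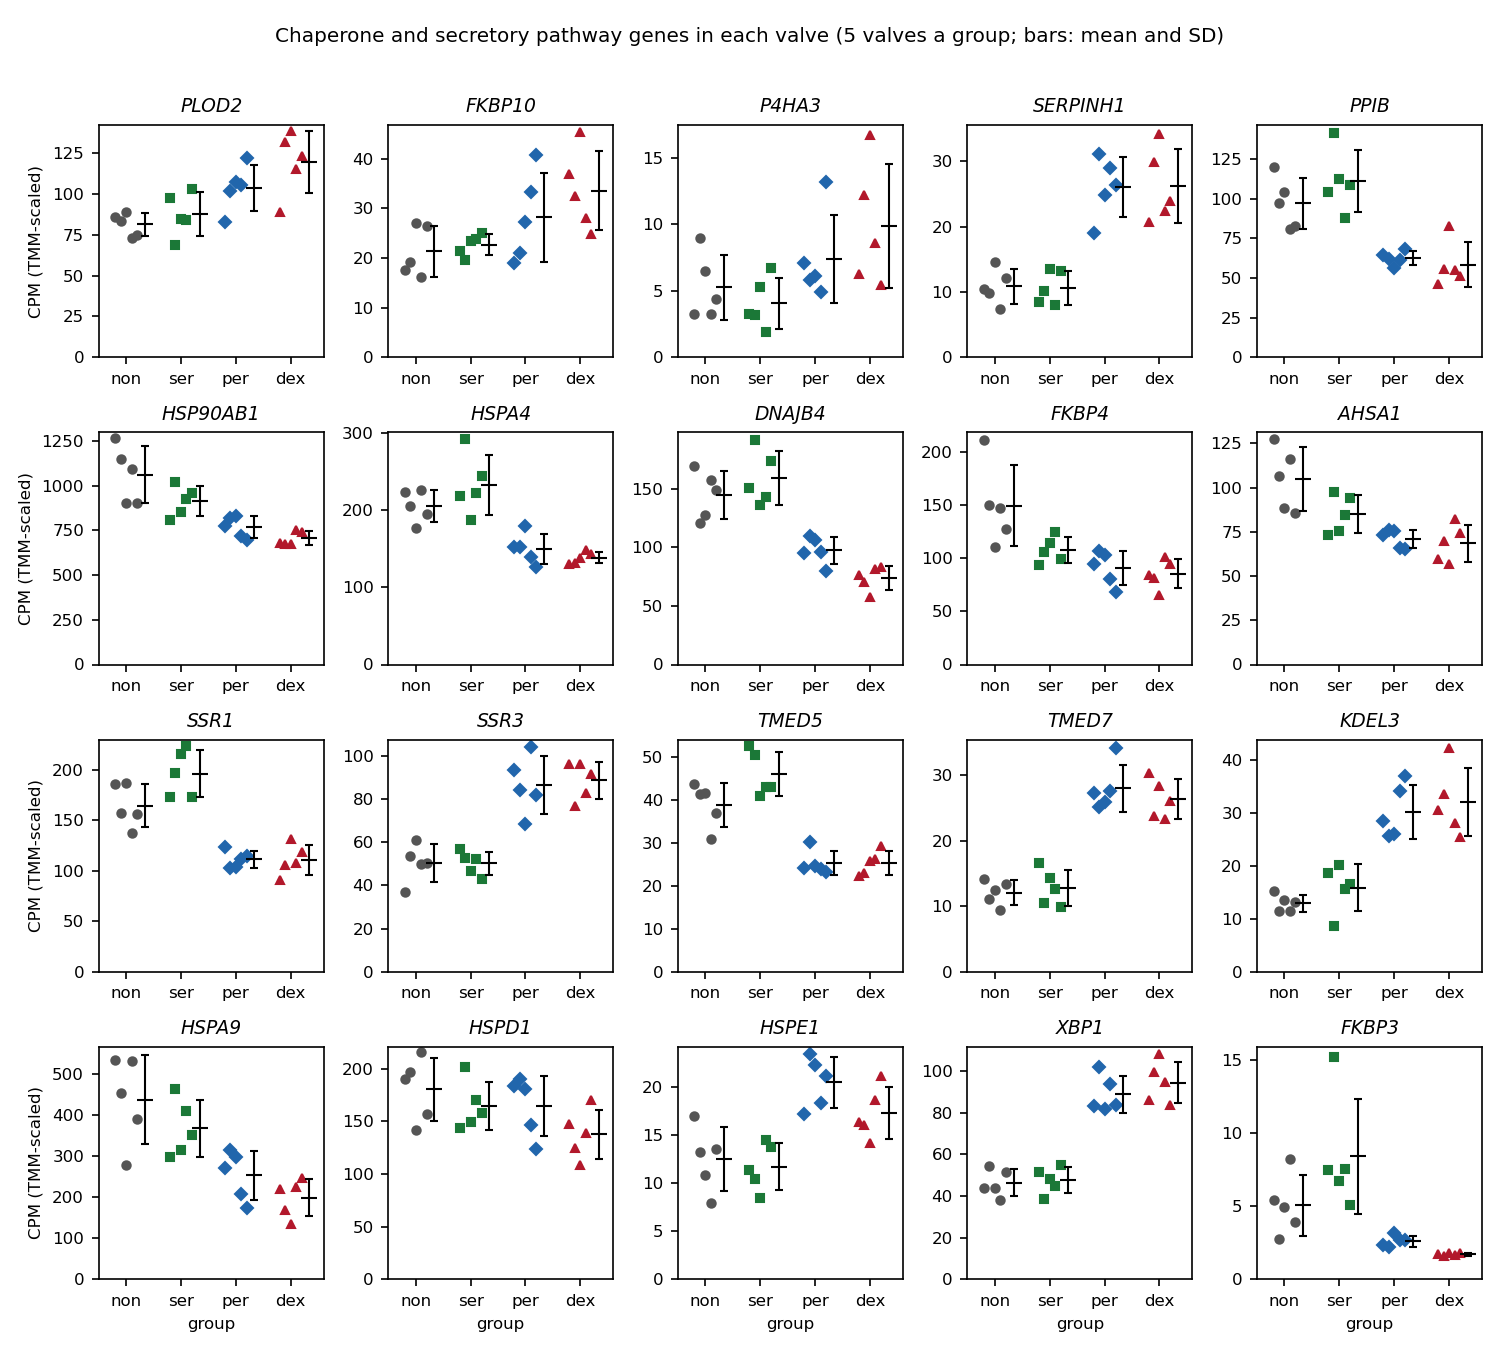
CPM of 20 genes in each of the 20 valves by group (non, non-treated; ser, serotonin; per, pergolide; dex, dexfenfluramine), with the mean and SD of 5 valves as a black bar beside the points. SERPINH1, SSR3, TMED7, KDEL3 and XBP1 separate the drug valves from the others on the high side, and SSR1, TMED5 and DNAJB4 on the low side.

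The other ER folding factors, 7 members, did not move as a block, with medians of 0.10 after serotonin, 0.14 after pergolide and 0.08 after dexfenfluramine. PDIA3, a disulfide isomerase that works with the lectin chaperones on glycoproteins, stayed close to its non-treated level of 311 ± 29.5 CPM (SD, n = 5), with 324 ± 29.4 CPM after serotonin, 342 ± 25.3 CPM after pergolide and 347 ± 31.1 CPM after dexfenfluramine. DNAJC1, a J protein of the ER membrane, measured 105, 82.9, 85.3, 110.0 and 87.4 CPM in the non-treated valves, 114, 128, 103, 139 and 109.5 CPM in the serotonin valves, 68.8, 65.8, 72.9, 54.4 and 61.4 CPM in the pergolide valves and 47.5, 56.7, 57, 66.2 and 58 CPM in the dexfenfluramine valves. Each drug valve lay below each non-treated and serotonin valve, at log2 fold changes of -0.54 ± 0.11 after pergolide and -0.72 ± 0.11 after dexfenfluramine, against 0.33 ± 0.11 after serotonin. DNAJC3, an ER J protein that assists HSPA5, averaged 109 ± 8.94 CPM, 127 ± 7.78 CPM, 100.5 ± 4.07 CPM and 95 ± 6.76 CPM from non-treated to dexfenfluramine, so that serotonin and the drugs lay on opposite sides of the non-treated mean.

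DNAJB11, another partner of HSPA5, was called lower after pergolide at -0.41 ± 0.13 and after dexfenfluramine at -0.37 ± 0.13. The pergolide call was found in 8 of 9 settings and in 6 of 10 fits without 1 valve, not without non-treated valve 1 or 3 or pergolide valve 4 or 5, and the dexfenfluramine call in 5 of 9 settings and in 5 of 10 fits without 1 valve, not without non-treated valve 1 or 3 or dexfenfluramine valve 1, 3 or 4. DNAJC10, which reduces wrong disulfides, was higher after pergolide at 0.29 ± 0.07 and not called after dexfenfluramine at 0.08 ± 0.07. KDELC1, a sugar transferase kept in the ER, was called higher after each drug, at 0.35 ± 0.10 and 0.35 ± 0.10, and KDELC2, a relative, was not called in any group, at 0.41 ± 0.20 after serotonin, 0.32 ± 0.20 after pergolide and 0.46 ± 0.19 after dexfenfluramine, with overlap of each group with the non-treated valves. With surrogate variables KDELC1 was at 0.16 and 0.18 (no call), and DNAJB11 at -0.20 and -0.11 (no call).

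A list of 34 general ER folding genes, of which 12 had an id, gave 4 genes called higher and 4 lower after pergolide, 3 and 6 after dexfenfluramine, and none after serotonin, where edgeR called 103 of all genes. With surrogate variables it gave 3 higher and 2 lower after pergolide and 1 and 2 after dexfenfluramine. QSOX1, which makes disulfides in the Golgi and outside the cell, measured 5.05, 3.52, 6.14, 2.65 and 3.91 CPM in the non-treated valves, 5.59, 4.43, 5.26, 4.56 and 5.06 CPM in the serotonin valves, 11.1, 7.69, 8.64, 13 and 15.5 CPM in the pergolide valves and 18.1, 15.3, 17.1, 11.2 and 10.6 CPM in the dexfenfluramine valves. Its drug valves lay above each other valve, at 1.36 ± 0.23 after pergolide and 1.73 ± 0.23 after dexfenfluramine. MANF, an ER protein released under ER stress, was higher at 0.62 ± 0.12 and 0.35 ± 0.12, while SIL1 and TXNDC12 were lower at -0.28 ± 0.10 and -0.29 ± 0.09 after pergolide and -0.40 ± 0.10 and -0.33 ± 0.09 after dexfenfluramine. UGGT2, a glucosyltransferase that checks folding, was called higher at 0.58 ± 0.14 and 0.45 ± 0.14. With surrogate variables it was at 0.33 after pergolide and 0.02 (no call) after dexfenfluramine. Its dexfenfluramine call was found in 7 of 9 settings and in 6 of 10 fits without 1 valve, not without non-treated valve 1, 4 or 5 or dexfenfluramine valve 3. The call of MANF after dexfenfluramine was found in 5 of 9 settings and in 4 of 10 fits without 1 valve, not without non-treated valve 2, 4 or 5 or dexfenfluramine valve 2, 4 or 5, and that of SIL1 after pergolide in 6 of 9 settings and in 4 of 10 fits without 1 valve, not without non-treated valve 1, 4 or 5 or pergolide valve 3, 4 or 5. With surrogate variables QSOX1 was at 0.82 (no call) and 1.01, and SIL1 at -0.18 and -0.19 (no call).

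The unfolded protein response could be read from 3 of 23 listed genes. XBP1, a transcription factor of that response, measured 44, 54.5, 44.1, 38 and 51.5 CPM in the non-treated valves, 51.5, 38.6, 48.2, 44.8 and 55 CPM in the serotonin valves, 83.1, 102, 81.8, 94.1 and 83.8 CPM in the pergolide valves and 86.3, 99.6, 108, 94.7 and 83.8 CPM in the dexfenfluramine valves. Each drug valve lay above each non-treated and serotonin valve, at 0.94 ± 0.11 after pergolide, 1.02 ± 0.11 after dexfenfluramine and 0.04 ± 0.11 after serotonin. Counts per gene do not tell spliced from unspliced XBP1 RNA. DERL2, which helps take misfolded proteins out of the ER, was called higher after each drug, at 0.40 ± 0.13 and 0.47 ± 0.13, and ATF6, a stress sensor of the ER membrane, was called lower after dexfenfluramine, at -0.36 ± 0.13, against -0.07 ± 0.13 after pergolide. With surrogate variables DERL2 was at 0.14 and 0.15 and not called, and its pergolide call was found in 4 of 10 fits without 1 valve, not without non-treated valve 1, 2, 4 or 5 or pergolide valve 1 or 5. The call of ATF6, at -0.15 (no call) with surrogate variables, was found in 4 of 9 settings and in 4 of 10 fits without 1 valve, not without non-treated valve 1, 2 or 4 or dexfenfluramine valve 2, 3 or 4. HSPA5, HSP90B1, CALR and CANX are not among the members, and symbols were taken from the study's list alone.

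Targeting to the ER and entry into it, 11 members, had medians of 0.12 after serotonin, -0.24 after pergolide and -0.26 after dexfenfluramine. In each drug group 3 members were called higher, SEC61A1, SSR2 and SSR3, and 7 lower. SSR2's call was found after pergolide in 2 of 9 settings and in 3 of 10 fits without 1 valve, not without non-treated valve 1, 2, 3 or 4 or pergolide valve 1, 2 or 5, and after dexfenfluramine in 8 of 9 settings and in 6 of 10 fits without 1 valve, not without non-treated valve 2 or 4 or dexfenfluramine valve 3 or 4. SRP14, part of the signal recognition particle that slows translation until the ribosome docks, measured 176, 142, 129.9, 174 and 128 CPM in the non-treated valves, 156, 208, 165, 164 and 183 CPM in the serotonin valves, 108, 88.5, 93.3, 91.3 and 75.6 CPM in the pergolide valves and 86.3, 80.8, 64.8, 85.4 and 89.1 CPM in the dexfenfluramine valves. The drug valves lay below each non-treated and serotonin valve, at -0.71 ± 0.12 after pergolide and -0.88 ± 0.12 after dexfenfluramine. SRP9, its partner in the particle, was lower too, at -0.58 ± 0.16 and -0.84 ± 0.16, and so was SRP72, at -0.29 ± 0.07 and -0.26 ± 0.07. SRP72 was at -0.09 and -0.08 (no call) with surrogate variables, and SRP14 at -0.56 after dexfenfluramine.

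The translocon-associated protein complex, which sits beside the channel and helps some proteins enter, did not move as a unit. SSR1 measured 186, 157, 186, 137 and 156 CPM in the non-treated valves, 173, 196, 215, 223 and 172 CPM in the serotonin valves, 123, 103, 104, 112 and 114 CPM in the pergolide valves and 90.6, 106, 131, 107 and 118 CPM in the dexfenfluramine valves. Its drug valves lay below each other valve, at -0.56 ± 0.11 after pergolide and -0.57 ± 0.11 after dexfenfluramine. SSR3, another subunit, measured 37.1, 53.6, 61.1, 49.7 and 50.2 CPM in the non-treated valves, 56.6, 52.9, 46.8, 52 and 43 CPM in the serotonin valves, 93.5, 83.9, 68.5, 104 and 82 CPM in the pergolide valves and 96, 76.9, 95.9, 82.8 and 91.4 CPM in the dexfenfluramine valves. Here the drug valves lay above each other valve, at 0.77 ± 0.12 and 0.81 ± 0.12, and SSR2 had the same sign, at 0.28 ± 0.10 and 0.30 ± 0.10. These signs were the same under each normalization tried and with surrogate variables.

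SEC61A1, the channel itself, was higher at 0.63 ± 0.15 and 0.70 ± 0.15, as was TRAM1, a helper of the channel outside the members, at 0.49 ± 0.10 and 0.58 ± 0.10. SEC62 and SEC63, which serve proteins that enter after translation, were below 0 after the drugs, SEC63 with no call after dexfenfluramine. The pergolide call of SEC63 was found in 4 of 9 settings and in 3 of 10 fits without 1 valve, not without non-treated valve 1, 2 or 3 or pergolide valve 1, 3, 4 or 5, and the dexfenfluramine call of SEC62 in 7 of 9 settings and in 9 of 10 fits without 1 valve, not without dexfenfluramine valve 1. SEC62 measured 225, 213, 237, 171 and 198 CPM in the non-treated valves, 298, 312, 244, 240.3 and 279 CPM in the serotonin valves, 135, 156, 158, 161 and 160.5 CPM in the pergolide valves and 148, 158, 192, 167 and 173 CPM in the dexfenfluramine valves. Each serotonin valve lay above each non-treated valve, and each pergolide valve below, with log2 fold changes of 0.39 ± 0.10 after serotonin, -0.44 ± 0.10 after pergolide and -0.32 ± 0.10 after dexfenfluramine. SEC11C, a signal peptidase subunit, had the same signs, at 0.58 ± 0.17, -0.24 ± 0.17 and -0.53 ± 0.17, with a call only after dexfenfluramine, found in 8 of 9 settings and in 7 of 10 fits without 1 valve, not without non-treated valve 1 or dexfenfluramine valve 1 or 2. The whole list of targeting, translocation and signal peptide cleavage, 12 of 26 genes with an id, gave 4 genes called higher and 7 lower after pergolide and also 4 and 7 after dexfenfluramine, or 2 and 3 after each drug with surrogate variables. There TRAM1 was at 0.31 (no call) and SEC63 at -0.09 (no call) after pergolide, and SEC11C at -0.24 (no call) after dexfenfluramine.

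Coats and cargo receptors, 13 members, had medians of 0.07 after serotonin, 0.28 after pergolide and 0.31 after dexfenfluramine, with 11 members above 0 and 2 below in each drug group. The medians of all genes tested were 0.02 after pergolide and 0.03 after dexfenfluramine. These members were picked for differences in these comparisons, so their signs are a description. Without non-treated valve 3 the pergolide median of the coats was 0.45. KDEL3, written so in the study's list and placed here with the receptors that return ER proteins, measured 15.2, 11.4, 13.5, 11.5 and 13.1 CPM in the non-treated valves, 18.6, 8.54, 20.2, 15.6 and 16.6 CPM in the serotonin valves, 28.4, 25.6, 25.9, 34.1 and 37 CPM in the pergolide valves and 30.6, 33.6, 42.1, 28.1 and 25.5 CPM in the dexfenfluramine valves. The drug valves lay above each other valve, at 1.23 ± 0.18 after pergolide and 1.31 ± 0.18 after dexfenfluramine. TMED7, a cargo receptor of the p24 family, measured 14.1, 11.1, 12.5, 9.41 and 13.3 CPM in the non-treated valves, 16.5, 10.4, 14.3, 12.6 and 9.83 CPM in the serotonin valves, 27.2, 25.1, 25.9, 27.6 and 34.2 CPM in the pergolide valves and 30.3, 23.8, 28.3, 23.3 and 26 CPM in the dexfenfluramine valves. It separated the same valves, at 1.21 ± 0.14 and 1.12 ± 0.14, while TMED10, of the same family, was higher by less, at 0.46 ± 0.07 and 0.35 ± 0.07. KDEL3 was at 0.80 after dexfenfluramine with surrogate variables.

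TMED5, also of the p24 family, went against TMED7 and TMED10, with 43.6, 41.2, 41.4, 30.9 and 36.8 CPM in the non-treated valves, 52.4, 50.3, 40.9, 42.9 and 43 CPM in the serotonin valves, 24.1, 30.1, 24.6, 23.9 and 23.1 CPM in the pergolide valves and 22.2, 22.9, 25.7, 26.1 and 29.2 CPM in the dexfenfluramine valves. Its drug valves lay below each other valve, at -0.62 ± 0.11 and -0.62 ± 0.11, and TMED4 was at -0.33 ± 0.13 with no call and -0.36 ± 0.13, or 0.05 and -0.006 (no call) with surrogate variables. The dexfenfluramine call of TMED4 was found in 3 of 9 settings and in 3 of 10 fits without 1 valve, not without non-treated valve 1, 2 or 5 or dexfenfluramine valve 1, 2, 3 or 4. Of the COPI coat, COPB1 measured 99.9, 124, 138, 105 and 112 CPM in the non-treated valves, 126, 99.7, 103, 116 and 129 CPM in the serotonin valves, 168, 155, 151, 173 and 167 CPM in the pergolide valves and 157, 173, 184, 165 and 155 CPM in the dexfenfluramine valves. The drug valves exceeded each other valve, at 0.49 ± 0.09 and 0.52 ± 0.09, and COPG1 was at 0.26 ± 0.08 and, with no call, 0.14 ± 0.08. The pergolide call of COPG1 was found in 8 of 9 settings and in 8 of 10 fits without 1 valve, not without non-treated valve 1 or 5. COPZ1 was at 0.20 ± 0.10 and 0.24 ± 0.10 with no call. COPZ2 was called higher at 0.93 ± 0.23 after pergolide and not called at 0.59 ± 0.23 after dexfenfluramine, with larger errors at levels of 3.25 to 13.8 CPM. With surrogate variables TMED5 was at -0.39 and -0.41 (no call), and COPB1 at 0.33 after dexfenfluramine.

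Of the COPII coat, which carries procollagen out of the ER, SEC23A was higher at 0.49 ± 0.08 and 0.40 ± 0.08, and the cargo adaptors SEC24A, SEC24C and SEC24D lay between 0.19 and 0.31 over the drug comparisons. Among these adaptors only SEC24A was called, and only after dexfenfluramine. With surrogate variables SEC24D was at 0.15 after pergolide and -0.06 after dexfenfluramine, SEC24A at 0.000 and 0.04, and SEC24C at 0.22 and 0.27. CTAGE5 and MIA3 load bulky cargo such as procollagen at ER exit sites. CTAGE5 measured 74.3, 76.1, 54.4, 89.4 and 75.9 CPM in the non-treated valves, 70.1, 70.0, 69.3, 66.8 and 72.2 CPM in the serotonin valves, 51.5, 48.4, 51.8, 41.1 and 50.0 CPM in the pergolide valves and 46.5, 40.8, 46.3, 43.6 and 43.6 CPM in the dexfenfluramine valves. Its drug valves lay below each other valve, at -0.60 ± 0.10 and -0.74 ± 0.10, and MIA3 was at -0.18 ± 0.07 and -0.15 ± 0.07 with no call. LMAN1, a lectin that carries glycoproteins to the Golgi, was at -0.15 ± 0.08 with no call and at -0.31 ± 0.09. The COPII list, 10 of 22 genes with an id, gave 2 genes called higher and 1 lower after pergolide, namely SEC23A, TFG and CTAGE5, and 3 higher and 3 lower after dexfenfluramine, with SEC24A among the higher and SAR1B and LMAN1 among the lower. The median of the list was 0.20 after dexfenfluramine and 0.009 with surrogate variables, where 1 gene was called on each side. The call of SEC24A was found in 1 of 9 settings and in 2 of 10 fits without 1 valve, not without non-treated valve 1, 2, 4 or 5 or dexfenfluramine valve 1, 2, 3 or 5, that of TFG after dexfenfluramine in 3 of 9 settings and in 3 of 10 fits without 1 valve, not without non-treated valve 2, 3 or 5 or dexfenfluramine valve 1, 2, 4 or 5, and that of TFG after pergolide in 8 of 9 settings and in 5 of 10 fits without 1 valve, not without non-treated valve 2, 3 or 5 or pergolide valve 1 or 2. The SAR1B call was found in 8 of 9 settings and in 9 of 10 fits without 1 valve, not without non-treated valve 4. With surrogate variables SEC24A was at 0.04 (no call), SAR1B at -0.28 (no call) and LMAN1 at -0.02 (no call) after dexfenfluramine. The COPI and p24 list, 8 of 24 genes with an id, gave 5 higher and 1 lower after pergolide and 3 higher and 2 lower after dexfenfluramine, or 3 higher and 0 lower after each drug with surrogate variables.

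Cytosolic chaperones and their partners, 19 members, had medians of 0.01 after serotonin, -0.23 after pergolide and -0.40 after dexfenfluramine. In the drug groups these medians lay on the other side of 0 from that of the 3 collagen-folding enzymes. Of the 19 members, 8 lay above 0 and 11 below after pergolide, and 7 and 12 after dexfenfluramine. With surrogate variables the cytosolic medians were -0.016 and -0.094, and FKBP10, a collagen-folding member, was at -0.03 and -0.04. The serotonin median of the cytosolic members changed sign between normalizations. HSP90AB1, the constitutive cytosolic HSP90, measured 1268, 1146, 904, 1093 and 900.4 CPM in the non-treated valves, 809, 1022, 855, 925 and 962 CPM in the serotonin valves, 774, 819, 832, 719 and 693 CPM in the pergolide valves and 681, 675, 675, 753 and 741 CPM in the dexfenfluramine valves. Each pergolide and dexfenfluramine valve lay below each non-treated valve, and serotonin valves lay between, overlapping the non-treated and the pergolide valves. The log2 fold change was -0.22 ± 0.10 after serotonin, -0.47 ± 0.10 after pergolide and -0.59 ± 0.10 after dexfenfluramine.

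HSPA4, a cytosolic exchange factor of HSP70, measured 223, 205, 176, 226 and 195 CPM in the non-treated valves, 218, 292, 186, 222 and 244 CPM in the serotonin valves, 152, 152, 179, 139 and 127 CPM in the pergolide valves and 130.4, 132, 138, 148 and 143 CPM in the dexfenfluramine valves. Its dexfenfluramine valves lay below each non-treated valve, pergolide valve 3 overlapped them, and serotonin valve 2 was the highest of the 20. The log2 fold changes were -0.45 ± 0.11 after pergolide and -0.57 ± 0.11 after dexfenfluramine. DNAJB4, a J protein that sends clients to HSP70, measured 169, 121, 128, 157 and 149 CPM in the non-treated valves, 151, 192, 136, 143 and 174 CPM in the serotonin valves, 95.6, 109.7, 106, 95.8 and 80.2 CPM in the pergolide valves and 76.4, 70.1, 57.6, 81.3 and 83.5 CPM in the dexfenfluramine valves. The drug valves lay below each other valve, at -0.57 ± 0.12 after pergolide and -0.97 ± 0.12 after dexfenfluramine. FKBP4, which joins HSP90 on steroid receptors, was lower after pergolide and dexfenfluramine, at -0.72 ± 0.16 and -0.81 ± 0.16, from 149.8 ± 38.2 CPM in non-treated valves. After serotonin it was at -0.47 ± 0.16 with no call and with overlap. With surrogate variables its values were -0.10 after serotonin, -0.29 after pergolide and -0.26 after dexfenfluramine, none of them called.

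DNAJC2 and DNAJC21, J proteins tied to the ribosome and its assembly, were lower at -0.63 ± 0.10 and -0.66 ± 0.17 after pergolide and -0.69 ± 0.10 and -0.82 ± 0.17 after dexfenfluramine. CCT2 and CCT7, subunits of the chaperonin that folds actin and tubulin, lay close to 0, between -0.29 and 0.24 over the drug comparisons. Against this direction, 4 members were called higher after pergolide: FKBPL, DNAJC6, HSPB3 and HSPA12B. DNAJC6, which strips clathrin from vesicles in neurons, averaged 1.4 ± 1.04 CPM without treatment, 3.03 ± 0.848 CPM after serotonin, 3.56 ± 1.24 CPM after pergolide and 1.66 ± 0.892 CPM after dexfenfluramine. FKBPL ran from 0 to 1.63 CPM in non-treated valves and from 2.49 to 3.37 CPM after pergolide, and after dexfenfluramine FKBPL and HSPA12B were called higher, at 1.12 ± 0.41 and 0.55 ± 0.20. FKBPL and DNAJC6 are measured from few reads, and counting error weighs on them. The pergolide call of DNAJC6 was found in 8 of 9 settings and in 3 of 10 fits without 1 valve, not without non-treated valve 1, 2, 3 or 4 or pergolide valve 1, 3 or 4, and that of HSPA12B in 8 of 9 settings and in 9 of 10 fits without 1 valve, not without pergolide valve 4. After dexfenfluramine the call of FKBPL was found in 4 of 9 settings and in 3 of 10 fits without 1 valve, not without non-treated valve 1, 4 or 5 or dexfenfluramine valve 2, 3, 4 or 5, and that of HSPA12B in 1 of 9 settings and in 1 of 10 fits without 1 valve, not without non-treated valve 1, 2, 3, 4 or 5 or dexfenfluramine valve 1, 2, 3 or 5. The other cytosolic members, DNAJB5, DNAJB6, DNAJC7, HSPA14, HSPA4L and HSPB8, lay between -0.37 and 0.60 after pergolide and between -0.63 and 0.41 after dexfenfluramine. Of these, HSPB8 was at 0.989 and 0.988 with surrogate variables, in place of 0.337 and 0.055. With surrogate variables DNAJC2 was at -0.33 and -0.38, DNAJC21 at -0.42 and -0.45 (no call), and DNAJC6 at 0.72 (no call) after pergolide. At most 2 of DNAJC2, HSP90AB1, HSPA4 and DNAJB4 were then still called after pergolide. After dexfenfluramine DNAJC7 was then at -0.09 (no call) and HSPA4L at -0.07 (no call).

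The list of the cytosolic HSP70 and HSP90 system, 15 of 37 genes with an id, gave 8 genes called lower and none higher by edgeR after pergolide, where 1052 of all genes were called higher. After dexfenfluramine it gave 11 lower and 1 higher, the co-chaperone PTGES3, at 0.47 ± 0.11. Of all genes, 12.7% were called lower and 12.1% higher after pergolide, and 15.4% and 13.5% after dexfenfluramine. Of the tested genes of the study's list, 28.6% were called lower after pergolide and 34.3% after dexfenfluramine. The medians of the HSP70 and HSP90 list were -0.05 after serotonin, -0.45 after pergolide and -0.59 after dexfenfluramine. With surrogate variables they were -0.27 and -0.26 for the drugs, which left 2 and 4 genes called lower. Without non-treated valve 1 or 3 or pergolide valve 3, and with limma-voom or the replicate block, 1 gene was called higher after pergolide. AHSA1, which speeds the HSP90 cycle, measured 128, 107, 88.3, 116 and 85.4 CPM in the non-treated valves, 73.4, 97.5, 75.4, 84.7 and 94.1 CPM in the serotonin valves, 73.4, 75.9, 75.2, 66 and 65.1 CPM in the pergolide valves and 59.6, 69.8, 57, 82.2 and 74.1 CPM in the dexfenfluramine valves. The drug valves lay below each non-treated valve, at -0.56 ± 0.12 and -0.61 ± 0.12, and BAG3, which links HSP70 to autophagy in muscle, was lower at -0.78 ± 0.17 and -0.80 ± 0.17. With surrogate variables AHSA1 was at -0.27 and -0.23 (no call), and BAG3 at -0.36 and -0.31 (no call).

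Chaperonin and prefoldin, 6 of 14 genes with an id, gave 3 genes called lower after each drug, the prefoldin subunits PFDN1, PFDN2 and PFDN6, which pass new actin and tubulin chains to the chaperonin. With surrogate variables no gene of this list was called lower after pergolide, and its median there was -0.15 in place of -0.34. CCT2 was called higher after pergolide with limma-voom, with upper-quartile normalization, without non-treated valve 4 and without pergolide valve 5. After dexfenfluramine 5 genes were called lower without non-treated valve 3 and without the most abundant gene, CCT7 and TCP1 being added. PFDN2 measured 50.5, 51.8, 35.6, 40.6 and 43.7 CPM in the non-treated valves, 36.1, 53.8, 49.7, 46.9 and 41 CPM in the serotonin valves, 24.9, 29.6, 23.4, 24.3 and 25.1 CPM in the pergolide valves and 20.0, 17.4, 20.3, 25.2 and 24.2 CPM in the dexfenfluramine valves. The drug valves lay below each other valve, at -0.80 ± 0.13 and -1.04 ± 0.13. With surrogate variables PFDN2 was at -0.40 (no call) and -0.63, and PFDN1 at -0.31 (no call) and -0.64. Small heat shock proteins, 4 of 7 with an id, went different ways: after pergolide HSPB3 was called higher, at 1.14 ± 0.35, and HSPB1 lower, at -0.66 ± 0.20, and after dexfenfluramine HSPB1 and CRYAB were called lower, at -0.58 ± 0.20 and -0.97 ± 0.30. The lower call of HSPB1 was found after pergolide in 7 of 9 settings and in 5 of 10 fits without 1 valve, not without non-treated valve 1 or 5 or pergolide valve 1, 2 or 4, and after dexfenfluramine in 4 of 9 settings and in 5 of 10 fits without 1 valve, not without non-treated valve 1 or 5 or dexfenfluramine valve 2, 4 or 5. The pergolide call of HSPB3 was found in 9 of 9 settings and in 8 of 10 fits without 1 valve, not without non-treated valve 3 or pergolide valve 1, and the dexfenfluramine call of CRYAB in 8 of 9 settings and in 9 of 10 fits without 1 valve, not without non-treated valve 1. With surrogate variables 2 genes of this list were called higher and none lower after each drug. HSPB1 was then at -0.56 and -0.63 (no call). HSPB3 was at 1.72 after pergolide and 1.29 after dexfenfluramine, and HSPB8 at 0.99 after each drug. CRYAB, a small heat shock protein abundant in heart muscle, measured 558, 396, 215, 554 and 390.2 CPM in the non-treated valves, 291, 528, 287, 369.8 and 345 CPM in the serotonin valves, 432, 393, 359, 219.8 and 210.4 CPM in the pergolide valves and 246, 204, 77.8, 271 and 277 CPM in the dexfenfluramine valves. Non-treated valve 3 and dexfenfluramine valve 3, the valves of low cardiomyocyte markers, were the lowest of their groups, and with surrogate variables its value after dexfenfluramine was 0.02, of the other sign.

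The ER and cytosolic arms were set side by side in each valve. The level of a list is the median over its genes of log2(CPM + 1) minus the mean of the non-treated valves. For the collagen folding list, the level was 0.03, -0.05, 0.24, -0.29 and -0.04 without treatment, 0.08, -0.15, 0.19, -0.04 and 0.27 after serotonin, 0.03, 0.26, 0.32, 0.45 and 0.76 after pergolide and 0.30, 0.77, 0.92, 0.46 and 0.24 after dexfenfluramine. For the cytosolic members, it was 0.21, 0.01, -0.16, 0.14 and -0.04 without treatment, -0.03, 0.05, -0.13, 0.07 and -0.01 after serotonin, -0.12, -0.22, -0.04, -0.08 and -0.42 after pergolide and -0.25, -0.30, -0.56, -0.31 and -0.25 after dexfenfluramine. All dexfenfluramine valves lay above all non-treated valves in the collagen folding list, which holds 3 genes that are not members, valve 5 by little. In the 3 collagen-folding members alone they overlapped, dexfenfluramine valves 1 and 5, at 0.29 and 0.24, lying below non-treated valve 3 at 0.34. In the cytosolic members the dexfenfluramine valves lay below all non-treated valves, while pergolide and serotonin valves overlapped the non-treated ones in each of these levels.

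The gap between the arms, collagen folding minus cytosolic, was -0.18, -0.05, 0.40, -0.43 and 0.00 in non-treated valves and 0.11, -0.20, 0.32, -0.11 and 0.28 after serotonin. It was 0.15, 0.48, 0.36, 0.53 and 1.18 after pergolide and 0.55, 1.07, 1.48, 0.76 and 0.49 after dexfenfluramine. The group means were -0.05 ± 0.30 (SD, n = 5), 0.08 ± 0.23, 0.54 ± 0.39 and 0.87 ± 0.41 from non-treated to dexfenfluramine. In this gap dexfenfluramine valves did not overlap non-treated or serotonin valves, pergolide valves overlapped each other group, and serotonin valves lay within the non-treated range. With only the 3 collagen-folding members the gap averaged -0.09 ± 0.40, 0.07 ± 0.24, 0.56 ± 0.46 and 0.89 ± 0.47, and dexfenfluramine valve 5, at 0.49, lay below non-treated valve 3, at 0.51. The gap of all 34 ER and ER to Golgi members over the cytosolic ones averaged -0.03 ± 0.19, 0.10 ± 0.10, 0.38 ± 0.17 and 0.51 ± 0.15. No test was made of these levels, because their genes were chosen on the same valves.

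**Figure D3:**
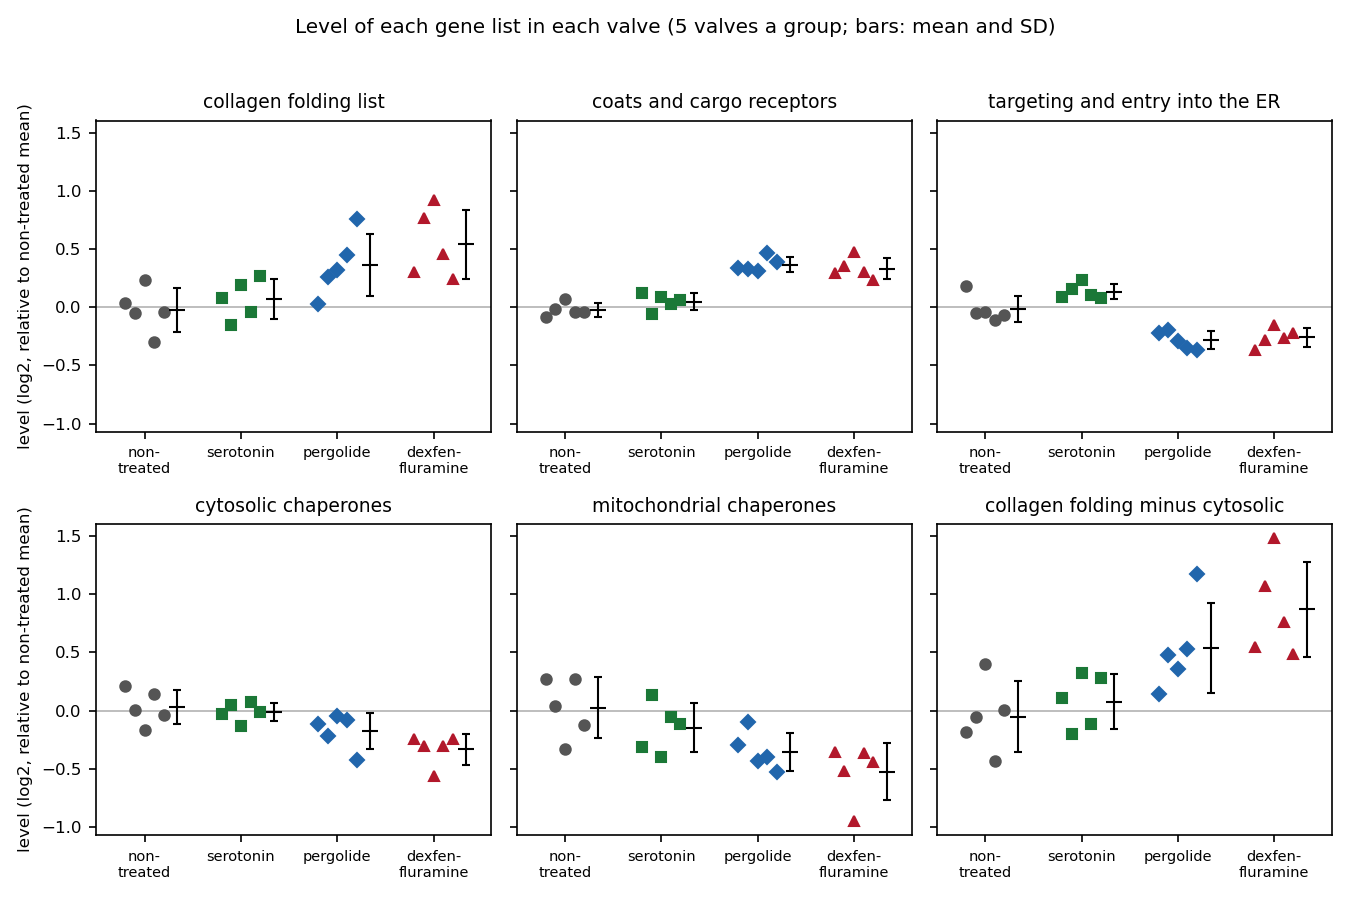
Level of 5 gene lists in each valve and the difference of collagen folding minus cytosolic chaperones, on the log2 scale relative to the non-treated mean, with the mean and SD of 5 valves as a black bar beside the points. Dexfenfluramine valves run from 0.49 to 1.48 in the difference, above the highest non-treated valve at 0.40, while the same difference for the 3 collagen-folding members alone overlaps, from 0.49 after dexfenfluramine against 0.51.

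The cardiomyocyte marker sums and the gap are given above for each valve, and their relation was not tested. With surrogate variables, the median of the cytosolic members was -0.02 after pergolide and -0.09 after dexfenfluramine, in place of -0.23 and -0.40. HSP90AB1 was then at -0.18 and -0.26, HSPA4 at -0.23 and -0.29, and DNAJB4 at -0.37 and -0.67. Of HSP90AB1, HSPA4, DNAJB4 and DNAJC2, at most 2 were then still called after pergolide, the count that their list kept. The part of heart muscle cells in the gap was not tested.

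The median of coats with surrogate variables was 0.23 after pergolide and 0.27 after dexfenfluramine, and that of ER entry was -0.09 and -0.24. In coats the drug valves ran from 0.23 to 0.47 and the other valves from -0.09 to 0.13, without overlap.

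**Figure D4:**
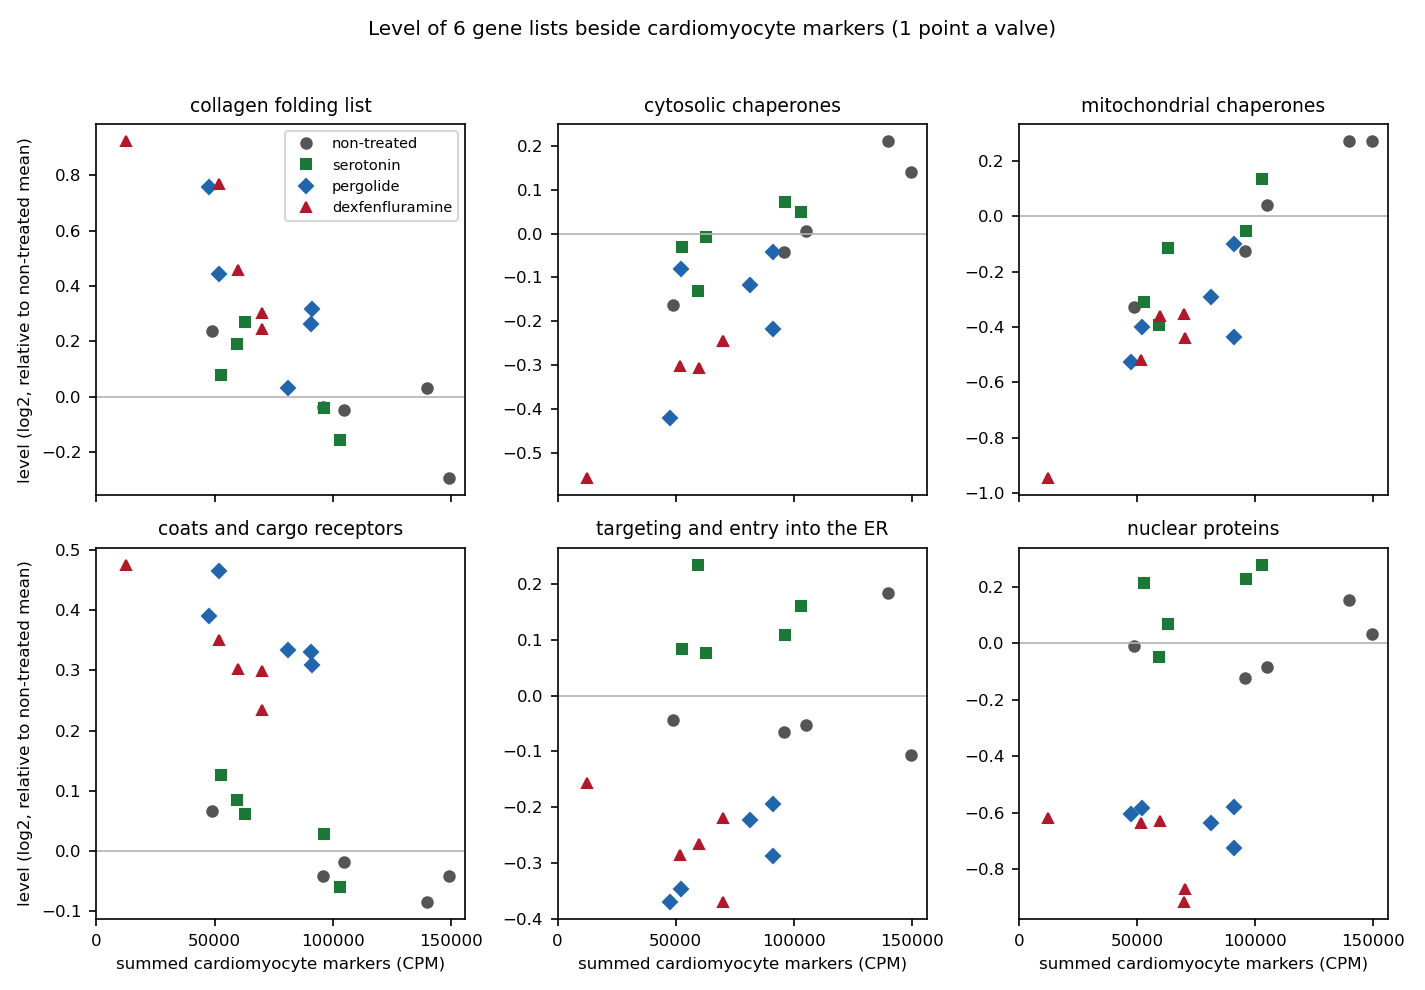
Level of 6 gene lists (log2, relative to the non-treated mean) against the summed CPM of 7 cardiomyocyte markers, 1 point for each of the 20 valves. The lowest mitochondrial and cytosolic levels belong to dexfenfluramine valve 3, which has the lowest marker sum.

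Mitochondrial chaperones, 7 members, had medians of -0.10 after serotonin, -0.35 after pergolide and -0.50 after dexfenfluramine, and -0.04 and -0.08 for the drugs with surrogate variables. HSPA9, the mitochondrial HSP70 that pulls in and folds imported proteins, measured 536, 455, 277, 532 and 391 CPM in the non-treated valves, 297, 465, 314, 411 and 353 CPM in the serotonin valves, 272, 314, 298, 209 and 174 CPM in the pergolide valves and 219, 169, 136, 224 and 246 CPM in the dexfenfluramine valves. The dexfenfluramine valves lay below each non-treated and serotonin valve, pergolide valves overlapped both, and non-treated valve 3 and dexfenfluramine valve 3 were the lowest of their groups. The log2 fold change was -0.79 ± 0.20 after pergolide and -1.14 ± 0.20 after dexfenfluramine, or -0.32 and -0.41 with surrogate variables.

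HSPD1 and HSPE1 are the chamber and the lid of the mitochondrial chaperonin. HSPD1 measured 190.5, 198, 142, 216 and 157 CPM in the non-treated valves, 144, 202, 149.9, 170.0 and 158 CPM in the serotonin valves, 184, 190.2, 181, 146 and 124 CPM in the pergolide valves and 147, 124, 109, 139 and 170.2 CPM in the dexfenfluramine valves. Its groups overlapped, at -0.13 ± 0.14 and -0.39 ± 0.14, and with surrogate variables the dexfenfluramine value was 0.10, of the other sign. HSPE1 measured 16.9, 13.3, 10.9, 7.94 and 13.6 CPM in the non-treated valves, 11.4, 10.4, 8.47, 14.5 and 13.8 CPM in the serotonin valves, 17.2, 23.4, 22.3, 18.3 and 21.2 CPM in the pergolide valves and 16.4, 16, 14.2, 18.6 and 21.2 CPM in the dexfenfluramine valves. Each pergolide valve lay above each non-treated and serotonin valve, dexfenfluramine valves overlapped the non-treated ones, and the log2 fold changes were 0.72 ± 0.17 and 0.48 ± 0.17, the only member of the 7 called higher in either drug group. Its dexfenfluramine call was found in 4 of 9 settings and in 2 of 10 fits without 1 valve, not without non-treated valve 2, 3, 4 or 5 or dexfenfluramine valve 1, 2, 4 or 5. With surrogate variables that value was 0.84. The dexfenfluramine call of HSPD1, on the lower side, was found in 4 of 9 settings and in 3 of 10 fits without 1 valve, not without non-treated valve 1, 2 or 4 or dexfenfluramine valve 1, 2, 3 or 4. HSPD1, HSPE1, HSP90AB1 and SRP9 have processed copies in mammalian genomes, and how reads with several alignments were counted is not given in the sources used here.

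DNAJA3, a J protein that works with HSPA9, was lower at -0.74 ± 0.18 and -1.01 ± 0.18, and DNAJC19, a part of the import motor, at -0.69 ± 0.22 and -0.94 ± 0.23. The pergolide call of DNAJC19 was found in 8 of 9 settings and in 5 of 10 fits without 1 valve, not without non-treated valve 1 or 4 or pergolide valve 3, 4 or 5. DNAJC11 and DNAJC15 lay between -0.50 and -0.27 over the drug comparisons. The list of mitochondrial chaperones, 8 of 11 genes with an id, gave 1 gene called higher and 3 lower after pergolide and 1 and 6 after dexfenfluramine, the 6 including GRPEL2, the exchange factor of HSPA9, at -0.90 ± 0.30, whose call was found in 8 of 9 settings and in 5 of 10 fits without 1 valve, not without non-treated valve 2 or 4 or dexfenfluramine valve 2, 4 or 5. With surrogate variables 2 genes were called lower after each drug. DNAJC19 was then at -0.34 and -0.24 (no call), and after dexfenfluramine DNAJA3 was at -0.62 and DNAJC11 at -0.08 (no call).

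The 3 nuclear members were lower in both drug groups, with medians of 0.05 after serotonin, -0.72 after pergolide and -0.71 after dexfenfluramine. FKBP3, a nuclear prolyl isomerase, measured 5.41, 2.71, 4.92, 8.24 and 3.91 CPM in the non-treated valves, 7.46, 15.2, 6.72, 7.51 and 5.06 CPM in the serotonin valves, 2.3, 2.22, 3.16, 2.64 and 2.67 CPM in the pergolide valves and 1.72, 1.55, 1.8, 1.68 and 1.76 CPM in the dexfenfluramine valves. The dexfenfluramine valves lay below each valve of the other groups, pergolide valves included, and the log2 fold changes were 0.74 ± 0.27 after serotonin, -0.94 ± 0.29 after pergolide and -1.53 ± 0.31 after dexfenfluramine. DNAJC8, which associates with the splicing machinery, measured 56.3, 52.6, 52.1, 53.8 and 48.1 CPM in the non-treated valves, 45.2, 63.9, 49.4, 50.4 and 59.8 CPM in the serotonin valves, 33.9, 35.2, 34.8, 35.2 and 34.2 CPM in the pergolide valves and 27.3, 33.4, 33.8, 33.5 and 32.5 CPM in the dexfenfluramine valves. The drug valves lay below each other valve, at -0.60 ± 0.09 and -0.71 ± 0.09, and DNAJC9, a histone chaperone, was at -0.72 ± 0.14 and -0.57 ± 0.14. FKBP3's pergolide call was found in 8 of 9 settings and in 9 of 10 fits without 1 valve, not without non-treated valve 4. The medians with surrogate variables were -0.71 and -0.66.

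Of the 3 members caught by their letters, HSPG2 encodes perlecan, a heparan sulfate proteoglycan of the matrix, and was higher at 0.42 ± 0.13 after pergolide and 0.51 ± 0.13 after dexfenfluramine. SRPK1, a kinase of splicing factors, was higher at 0.38 ± 0.09 and 0.29 ± 0.09, and SSRP1, a histone chaperone subunit, was lower at -0.60 ± 0.08 and -0.49 ± 0.08. The pergolide call of HSPG2 was found in 8 of 9 settings and in 7 of 10 fits without 1 valve, not without non-treated valve 2 or pergolide valve 4 or 5. With surrogate variables HSPG2 was at 0.22 and 0.33 (no call), and SSRP1 at -0.32 after dexfenfluramine. After serotonin all 3 lay between -0.08 and 0, with no call.

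After serotonin 1 of the 66 members was called, beside 1.19% of all genes, and a missing call does not show that the valves were alike. SEC63, a partner of the channel that recruits HSPA5, measured 169.5, 157, 178, 148 and 145 CPM in the non-treated valves, 213, 228, 194, 199.5 and 193 CPM in the serotonin valves, 144, 151, 132, 138 and 122 CPM in the pergolide valves and 136, 132, 149.6, 131 and 146 CPM in the dexfenfluramine valves. Each serotonin valve lay above each non-treated valve, at 0.36 ± 0.08. SRPRA, the receptor of the signal recognition particle, was lower in each serotonin valve than in each non-treated valve, at -0.27 ± 0.07, with no call, and SEC62 separated the groups on the higher side, also with no call. The call of SEC63 was found in 4 of 9 settings, namely DESeq2, its size factors, limma-voom and upper-quartile normalization, and in 4 of 10 fits without 1 valve, not without non-treated valve 2, 4 or 5 or serotonin valve 1, 2 or 4. Over the whole table, 90 of the 103 called genes were higher and 13 lower, and the count was 221 with DESeq2, 53 with DESeq2's size factors, 48 with no filter and 1 with the replicate number as a block. With upper-quartile normalization 55 were higher and 19 lower, and without the most abundant gene 28 and 9.

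Leaving out 1 valve moved the serotonin count from 103 to 0 without non-treated valve 2, to 257 without valve 3, to 3 without valve 4 and to 0 without valve 5. It moved to 0 without serotonin valve 1, to 4 without valve 2, to 21 without valve 4 and to 50 without valve 5. The number of members called higher, 1 with all valves, was 0 without non-treated valve 2, 4 or 5 or serotonin valve 1, 2 or 4, it was 2 without serotonin valve 3, and it was 4, with 1 member lower, without non-treated valve 3.

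The treatments were also compared with one another, which asks whether the drugs act on the valve as serotonin does. Pergolide against serotonin gave 17 members called higher and 20 lower, beside 27.5% of all genes, 12.4% higher and 15.1% lower. Dexfenfluramine against serotonin gave 18 and 25, beside 30.3% of all genes, 13.9% higher and 16.4% lower. With surrogate variables these were 12 and 20 for pergolide and 9 and 21 for dexfenfluramine. For HSPA4 the values were -0.63 ± 0.11 and -0.75 ± 0.11, for SRP14 -0.94 ± 0.12 and -1.11 ± 0.12, and for FKBP3 -1.67 ± 0.28 and -2.27 ± 0.30, each further from 0 than against non-treated valves. For HSP90AB1 they were -0.25 ± 0.10 and -0.38 ± 0.10, nearer to 0 than against non-treated valves. P4HA3, FKBP10 and PLOD2 were at 1.28 ± 0.38, 0.56 ± 0.20 and 0.45 ± 0.12 in dexfenfluramine against serotonin, and FKBP10 was at -0.003 with surrogate variables. In pergolide against serotonin the same genes were at 0.875 ± 0.392, 0.317 ± 0.203 and 0.242 ± 0.123, with no call. The treated valves chose these members too, so the shares are a description.

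Dexfenfluramine against pergolide gave 0 called members and 0% of all genes with edgeR, where 613 genes had an unadjusted p under 0.05. DESeq2 and limma-voom also called 0 genes, with 682 and 712 at an unadjusted p under 0.05. For the members, the difference lay between -1.09 for DNAJC6 and 0.41 for P4HA3 on the log2 scale, 58 of 66 were within 0.3 of 0, and the 95% interval held 0 for 61. The interval of SERPINH1 ran from -0.37 to 0.38, that of PLOD2 from -0.05 to 0.46 and that of FKBP10 from -0.16 to 0.66. The intervals of DNAJC6, HSPB3, DNAJB5, DNAJB4 and DNAJC10 lay below 0 before any adjustment, that of DNAJB4 from -0.66 to -0.14. Over roles, 18 of 19 cytosolic and 7 of 7 mitochondrial members were below 0, and 3 of 3 collagen-folding members above. Of ER entry 7 were above 0 and 4 below, of coats 7 and 6, and of the other ER folding factors 4 and 3. Nuclear members had 1 above and 2 below, and those caught by their letters 2 and 1. The median of all genes tested was -0.003. Cardiomyocyte marker sums, which overlapped, averaged 52847 ± 23895 CPM (SD, n = 5) after dexfenfluramine and 72624 ± 21300 CPM after pergolide. Their part in these signs was not tested. The doses differ, and a missed threshold does not show that the drugs act alike.

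The genes named here outside the rule that chose names, among them FKBP4, TMED10, SEC23A, SEC24C, COPZ2, DNAJC2, DNAJC21, CCT2, CCT7, SRP72, SRPRA, MIA3, SIL1, TXNDC12, UGGT2, TCP1, TNNT2, MYH7, PLN, PDGFRB, LUM, CIDEA, LEP, MYH11, TAGLN and DNAJB5, were picked after their values were seen. Levels of different genes are not compared, since the counts carry no gene lengths.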

How the data were processed

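The authors deposited raw counts of reads per Ensembl gene: libraries of rRNA-depleted RNA were aligned to oryCun2 with TopHat2 2.1.1 and counted with HTSeq in union mode, and Picard is among the tools named. The sources used here do not give the annotation release, the strand setting or what was done with reads of several alignments. Symbols came from the study's list. For 17 of the 66 members the id matched after removal of 1 leading 0 that made it longer than its 11 digits. All 20 columns were used.

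Counts were scaled by TMM, filtered by filterByExpr and tested with the quasi-likelihood test of edgeR 4.0.16 (R 4.3.3) in a single fit of the 4 groups, with Benjamini-Hochberg adjustment over all 8683 genes and a threshold of 0.05. Alternatives used limma 3.58.1, DESeq2 1.42.0, sva 3.50.0 with 4 surrogate variables, other size factors, no filter, the replicate number as a block, fits of only the 2 groups compared, and each valve left out. Upper-quartile normalization and leaving out the most abundant gene were chosen after seeing the data. The test was checked on simulated data, and no result here rests on that check. Intervals have 16 degrees of freedom. Tables and plots used Python 3.11.15, numpy 2.4.6, pandas 2.3.3, scipy 1.17.1 and matplotlib 3.10.9. Depth ran from 3247091 to 5921025 counts per valve, and the spread between 5 valves limits most genes.

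The members and the lists were chosen with earlier results of these data known. Genes were named by a rule, which took every collagen-folding member. In each other role it took the 3 members of highest mean CPM and the 2 of largest log2 fold change against non-treated valves. In each list it took the 2 other genes of smallest p and the gene the list is known for. It also took any gene behind a count of 5 or fewer in the main fit.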

Additional observations from a re-analysis of the deposited data

Results flagged for a closer look

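In 21 of 272 groups of 5 valves, the valve at the end of the range lay far from the rest of its group, with a gap to its neighbour of over 0.71 of the whole range. Chance gives such a value in about 1 in 20 groups, and no cause was tested.

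In pergolide valve 5, P4HA3 was the highest of its group (gap 0.738 of the range), and so were TMED7 (0.724) and COL3A1 (0.757). Pergolide valve 2 was the highest of its group in total counts (0.746), SSRP1 (0.741), PFDN2 (0.725) and TMED5 (0.780). Pergolide valve 3 was the lowest in PDIA3 (0.745) and pergolide valve 1 in SEC62 (0.818).

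Dexfenfluramine valve 3, with the lowest cardiomyocyte markers of the 20 valves, was the lowest of its group in the level of cytosolic chaperones (0.809) and of mitochondrial chaperones (0.717) and the highest in PPIB (0.738). Dexfenfluramine valve 1 was the lowest in FKBPL (0.780) and in DNAJC8 (0.801). Dexfenfluramine valve 2 was the highest in the level of the other ER folding factors (0.833), and dexfenfluramine valve 5 in LMAN1 (0.746).

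Non-treated valve 5 was the highest of its group in DNAJC6 (0.818), non-treated valve 1 in the level of ER entry (0.787) and non-treated valve 4 in the adipocyte markers (0.751). Serotonin valve 2 was the highest in FKBP3 (0.758) and serotonin valve 5 in the macrophage markers (0.731).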

How the results depend on the processing

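The medians of coats, ER entry, nuclear and mitochondrial members kept their sign in each drug group under every alternative run, and no normalization moved the median of all genes by over 0.1 on the log2 scale. Of 13674 gene values under an alternative, 13442 moved by less than the spread between valves and 226 by more, 221 of these with surrogate variables.

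Serotonin against non-treated gave 103 called genes, and 221 with DESeq2, 53 with its size factors, 48 with no filter, 0 with only the 2 groups compared and 37 without the most abundant gene. With the replicate number as a block it gave 1, although valves of the same number do not pair: of 30 same-numbered pairs, 6 had a correlation over 0.1 (from -0.342 to 0.492). Leaving out 1 valve gave 0 to 257. Listed genes called higher were 1, and 2 with DESeq2 or limma-voom, 0 with surrogate variables, no filter, the 2 groups, the block or without the most abundant gene, and 0 to 4 without 1 valve. Those called lower were 0, and 1 with DESeq2, 0 to 1 without 1 valve.

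With surrogate variables, calls were 1156 for pergolide and 987 for dexfenfluramine against non-treated, and 1506 and 1381 against serotonin. Listed genes called lower were 10 after pergolide, and after dexfenfluramine 13 were higher and 16 lower. The cytosolic median was -0.016 after pergolide and -0.094 after dexfenfluramine, and the collagen folding median 0.283 after dexfenfluramine. Called values of the other sign were those after dexfenfluramine of FKBP10 (-0.041), HSPD1 (0.098) and CRYAB (0.019) against non-treated, and of FKBP10 (-0.003), HSPA4L (0.014) and COL1A1 (-0.144) against serotonin. The cause was not tested. Members with ids as written numbered 49 of 66.

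Depth limits genes with few reads, such as FKBPL and DNAJC6, and 5 valves a group limit the rest. Symbols were taken from the study's list alone, so ER chaperones outside it were not looked up.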
